A study of Mus musculus with 6 samples.

Results

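Gap junction connexins were measured in the cochlear lateral wall of mice at 2 ages. The 7 genes Gjb2, Gjb6, Gjb1, Gja1, Gja4, Gja5 and Gjc1 were chosen by name. All 14 probe sets that the array's annotation assigns to one of them alone were taken, out of 45037 probe sets for 18193 genes. Each probe set is a group of short probes that together give 1 signal. The tissue came from CBA/CaJ mice of both sexes that were raised in-house under low noise, and the labels give no mutation, transgene or treatment in either group. Young adults were 1 to 3 months old and old mice were 1.5 years old, with 3 arrays per age. Total RNA of the microdissected lateral wall, which comprises spiral ligament and stria vascularis, was hybridised to 1-colour Affymetrix arrays. Each age was prepared in triplicate, and whether a sample is 1 animal or a pool is not given in the sources used here, so p-values reflect only how far these samples vary.

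Connexins are membrane proteins that assemble in rings of subunits to form hemichannels, and hemichannels of adjacent cells dock into gap junction channels that pass ions and small molecules. In the lateral wall, a connective tissue network of fibrocytes with strial basal and intermediate cells is joined by gap junctions built mainly from Cx26 and Cx30, the products of Gjb2 and Gjb6. This network is part of the route by which potassium returns to the stria, and mutations of either gene cause hereditary deafness. Other connexins have other typical sites: Cx43 (Gja1) in fibroblasts, bone cells and many further cells, Cx37 (Gja4) and Cx40 (Gja5) in arterial endothelium, Cx45 (Gjc1) in vascular smooth muscle and pericytes, and Cx32 (Gjb1) in Schwann cells and liver.

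Of the 7 connexins, 5 had signal in the lateral wall. Gjb2 and Gjb6 gave bright signals at both ages, and neither passed the test for age. On probe sets above background, Gja1 had differences of -0.33 to -0.57 (old minus young, log2) and Gjc1 of -0.39 and -0.53, and 1 probe set of each passed as lower. Gja4 had signal and did not pass, and Gjb1 and Gja5 did not exceed background. A signal was counted as above background when the mean of its brighter age group exceeded 5.89 log2, the 95th percentile of 78 probe sets for olfactory and vomeronasal receptors. Those receptor genes were taken as silent in this tissue, and their mean signals spanned 3.00 to 6.29 with a median of 4.0. Probe sets differ in how strongly they bind, so a higher signal of one connexin than another is not a higher amount of RNA.

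All values are log2 signals. Differences are old minus young, with the standard error and the 95% confidence interval of a limma fit over all 45037 probe sets, and p-values are adjusted over all of them by the Benjamini-Hochberg method. A probe set passed at an adjusted p under 0.05. Group values are means ± SD of n = 3 arrays. Of the 14 connexin probe sets, 2 passed as lower and 0 as higher in old tissue. Of all probe sets 4.71% passed, 2.84% as lower and 1.86% as higher. With no adjustment, 7 of the 14 had a limma p under 0.05, all of them lower in old tissue, against 19.2% of all probe sets and 9.37% lower. The 3 young and 3 old values did not overlap for 8 of the 14, against 23.8% of all, and 7 of these 8 were lower in old tissue, against 11.3% of all. Of the 8, 5 belong to Gja1 and share a transcript, so they are repeated readings of 1 gene. The median difference was -0.24 over the 14 probe sets and 0.01 over all. Counted with the brightest probe set per gene, 0 of 7 connexin genes passed in the limma fit, where 4.78% of 18193 genes did. With no adjustment, 2 of 7, Gja1 and Gjc1, had a limma p under 0.05, both lower, against 20.7% of all genes and 7.23% lower. The groups did not overlap for 3 of 7, 2 of them lower, against 26.7% of all genes and 9.7% lower. Here the median difference was -0.01 over the 7 genes and 0.03 over all genes.

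**Figure D1:**
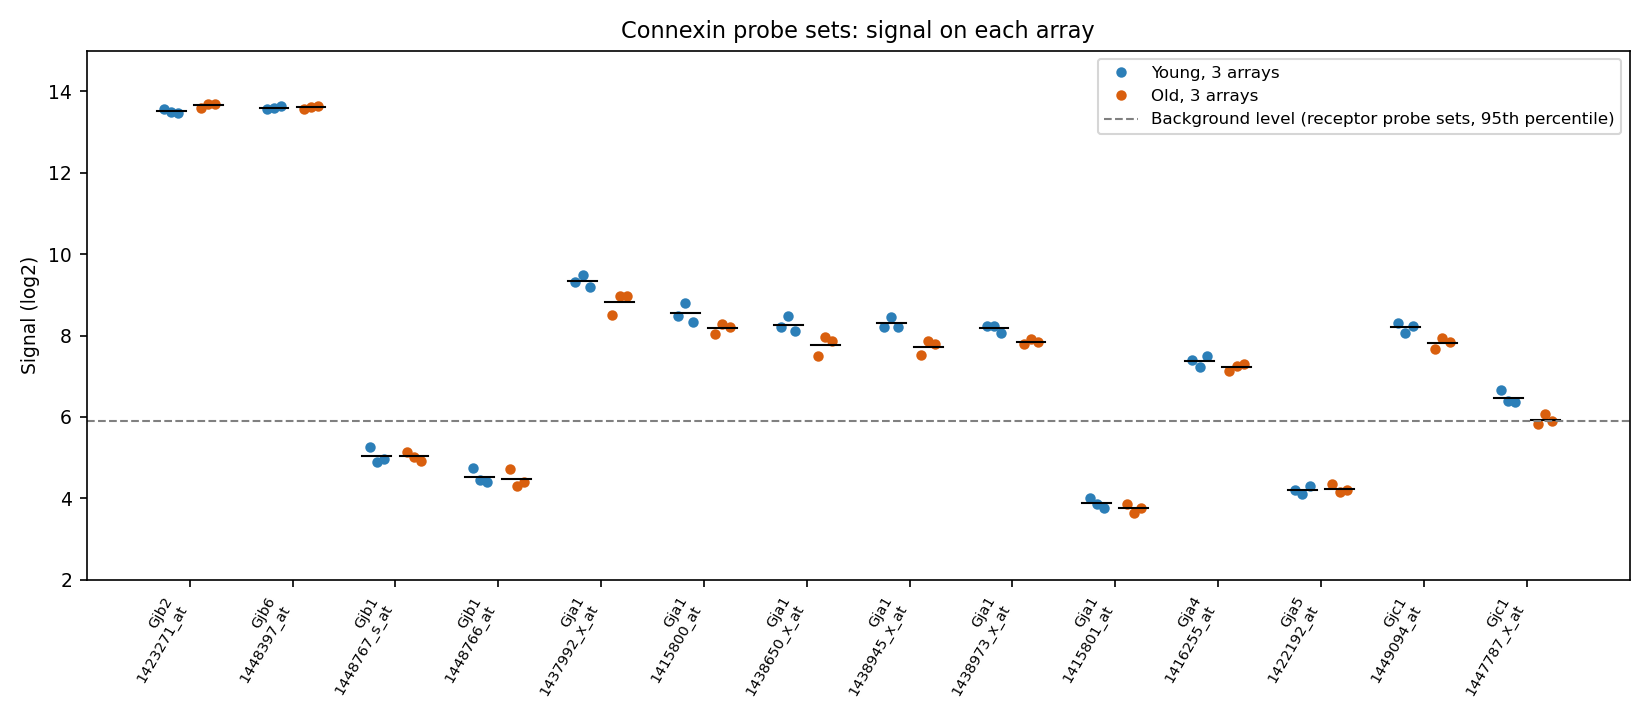
Signal (log2) of each of the 14 connexin probe sets on the 3 young (blue) and 3 old (orange) arrays, with group means as short lines and the background level of 5.89 as a dashed line. Gjb2 and Gjb6 sit near the top of the scale at both ages, while both Gjb1 probe sets, Gja5 and 1 Gja1 probe set sit below the dashed line.

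The arrays had medians of 6.26 to 6.30. Xist, which female cells transcribe from an inactive X, was at 6.06 on the array of young replicate 2 and at 11.95 to 12.65 on the others, and values without that array are given where it decides a call. As a sign of RNA length, the Gapdh signal at the 3′ end minus that at the 5′ end was 1.07 to 1.25 on young and 1.26 to 1.45 on old arrays (exact two-sided permutation p = 0.1, the smallest possible for 3 against 3). The same measure for Actb was 1.46 to 1.60 on young and 1.39 to 1.84 on old arrays (exact permutation p = 0.4). Markers of the labelled tissue were above background for 9 of 9 spiral ligament fibrocyte genes, 7 of 7 marginal cell genes, 7 of 8 intermediate cell genes, 5 of 6 basal cell genes and 5 of 5 spindle and root cell genes. Of 8 hair cell genes, 3 were above background, and Pou4f3, Atoh1, Gfi1, Slc26a5 and Tmc1 were not. The 3 were Myo6 (11.36 in young and 11.41 in old tissue), Otof (6.24 and 6.37) and Myo7a (5.82 and 5.93, near the background level). Of the fibrocyte, marginal, intermediate, spindle and root cell genes none passed the test for age. Of the 6 genes listed for basal cells, Sox8 and Sox10 rose and 4 did not pass, among them Cldn11 (difference 0.05) and Bcan (-0.61). Whether Sox10 marks basal cells alone in this tissue was not tested.

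Gjb2 and Gjb6 encode the pair of connexins that make up most lateral wall gap junctions. Gjb2 was at 13.58, 13.50 and 13.46 on the young arrays and at 13.60, 13.69 and 13.68 on the old arrays. The old values lay above the young ones, although the nearest values almost met. The means were 13.51 ± 0.06 and 13.66 ± 0.05, and the difference of 0.14 ± 0.08 (95% interval -0.03 to 0.32) did not pass (limma adjusted p = 0.373). Gjb6 was at 13.58, 13.60 and 13.63 on the young arrays and at 13.58, 13.62 and 13.63 on the old arrays. The groups overlapped fully, with means of 13.60 ± 0.03 and 13.61 ± 0.03. The Gjb6 difference was 0.01 ± 0.07 (95% interval -0.16 to 0.17, limma adjusted p = 0.980), and the interval holds changes of either sign. Each gene has 1 probe set with a single symbol on this array.

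The contrast between both genes within an array is free of any shift shared by the array. Gjb6 minus Gjb2 was 0.00, 0.10 and 0.17 on the young arrays and -0.02, -0.07 and -0.05 on the old arrays. The old values were all lower than the young ones, with means of 0.09 ± 0.09 and -0.05 ± 0.03 and a difference of -0.14. The exact two-sided permutation p was 0.1, the smallest that 3 against 3 arrays can give, so the design cannot pass 0.05 for this contrast. Both signals lay near the upper end of the scale, whose highest value was 14.76, and 0.226% and 0.218% of all probe sets had a higher mean than Gjb2 and Gjb6. Bright array signals can be compressed, and saturation was not examined.

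Gjb2 and Gjb6 are direct neighbours among the protein-coding genes of chromosome 14, next to Gja3, the lens connexin gene, which did not exceed background (4.85 ± 0.13 in young and 4.67 ± 0.19 in old tissue). Their promoter windows from RefSeq on GRCm38.p6, 250 bases before to 50 after the transcription start, are shown because both genes gave bright signals and neither passed, while their start regions differ in base make-up. The windows are chr14:57104653-57104952 for Gjb2 and chr14:57133562-57133861 for Gjb6, both on the minus strand, printed 5′ to 3′ along the gene with GC boxes (GGGCGG on either strand) in capitals.
Gjb2: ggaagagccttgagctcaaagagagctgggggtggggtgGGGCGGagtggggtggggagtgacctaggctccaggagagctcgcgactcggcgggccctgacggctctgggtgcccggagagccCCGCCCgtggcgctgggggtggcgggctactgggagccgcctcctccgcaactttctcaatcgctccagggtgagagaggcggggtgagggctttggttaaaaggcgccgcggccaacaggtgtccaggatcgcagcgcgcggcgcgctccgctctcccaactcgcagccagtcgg
Gjb6: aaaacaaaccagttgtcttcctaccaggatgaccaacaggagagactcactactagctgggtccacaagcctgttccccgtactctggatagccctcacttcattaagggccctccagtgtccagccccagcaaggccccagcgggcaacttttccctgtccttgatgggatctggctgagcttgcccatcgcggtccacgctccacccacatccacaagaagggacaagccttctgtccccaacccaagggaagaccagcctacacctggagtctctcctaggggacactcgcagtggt
The Gjb2 window held 2 GC boxes, 27 CpG dinucleotides and 70.0% G or C. The Gjb6 window held 0 GC boxes, 6 CpG dinucleotides and 57.3% G or C. Over 32851 such windows, 35.7% held a GC box, and the medians were 7 CpG dinucleotides and 52.7% G or C. Of the 7 connexin genes 6 had a window in the table, and Gjc1 was not matched. Among the others, Gja4, Gja5 and 1 of the 4 windows of Gjb1 held a GC box.

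Cells of the organ of Corti that border the lateral wall also carry Cx26 and Cx30. Of 9 supporting cell genes measured, 6 were above background, Tecta, Tectb and Prox1 were not, and 1, Otog, rose. Among those that did not pass, Sox2 (0.84) and Ush1c (0.49) had positive differences and Otoa (-0.46) a negative one. Of the 9 differences 2 were below 0, and the median was 0.11. The summed linear signal of this list spanned 2170 to 2520 on the young and 2427 to 3500 on the old arrays, an overlap. Cdkn1b, the brightest gene of the list (10.27 in young and 10.38 in old tissue), weighs most in this sum. The part of these cells in the Gjb2 and Gjb6 values was not tested. In bulk tissue, fewer cells of a type and less RNA per cell cannot be told apart, for any connexin.

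Gja1 encodes Cx43, the connexin of fibroblasts, osteoblasts and many other cells. Its brightest probe set, 1437992_x_at, was at 9.31, 9.48 and 9.20 on the young arrays and at 8.51, 8.96 and 8.98 on the old arrays. All old values lay below all young values, with means of 9.33 ± 0.14 and 8.82 ± 0.27. The difference was -0.51 ± 0.14 (95% interval -0.83 to -0.20) and did not pass (limma adjusted p = 0.0768). It passed with an intensity trend and robust variance (limma adjusted p = 0.0482). The probe set that passed, 1438945_x_at, was at 8.22, 8.45 and 8.22 on the young and at 7.52, 7.87 and 7.80 on the old arrays. The groups did not overlap, and old replicate 1 was the lowest array. Its means were 8.30 ± 0.13 and 7.73 ± 0.19, and the difference of -0.57 ± 0.11 is a ratio of 0.675 of old to young (limma adjusted p = 0.0313). The call was lost on leaving out any array except old replicate 2, with a limma adjusted p of up to 0.0970 and of 0.0502 without young replicate 2, while the difference stayed between -0.64 and -0.46.

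A further 3 Gja1 probe sets had differences in the same direction without passing. The probe set 1438650_x_at was at 8.22, 8.47 and 8.12 in young and 7.50, 7.96 and 7.87 in old arrays (-0.49 ± 0.14, limma adjusted p = 0.0880). The probe set 1415800_at was at 8.48, 8.81 and 8.34 in young and 8.03, 8.29 and 8.21 in old arrays (-0.37 ± 0.13, limma adjusted p = 0.162). The probe set 1438973_x_at was at 8.23, 8.23 and 8.06 in young and 7.78, 7.91 and 7.83 in old arrays (-0.33 ± 0.08, limma adjusted p = 0.0644). On each of these 3 the groups did not overlap, and old replicate 1 had the lowest value. The sixth probe set, 1415801_at, gave no signal above background, with means of 3.88 ± 0.12 for young and 3.75 ± 0.10 for old arrays (-0.13 ± 0.09, limma adjusted p = 0.550). It carries the same source accession in the annotation as 1415800_at, so probe sets of 1 transcript disagreed in signal. The suffix x_at marks probe sets with probes that can also bind other transcripts, and 4 of the 6 carry it. The mean of all 6 probe sets gave a difference of -0.40 (limma adjusted p = 0.0514 over genes).

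**Figure D2:**
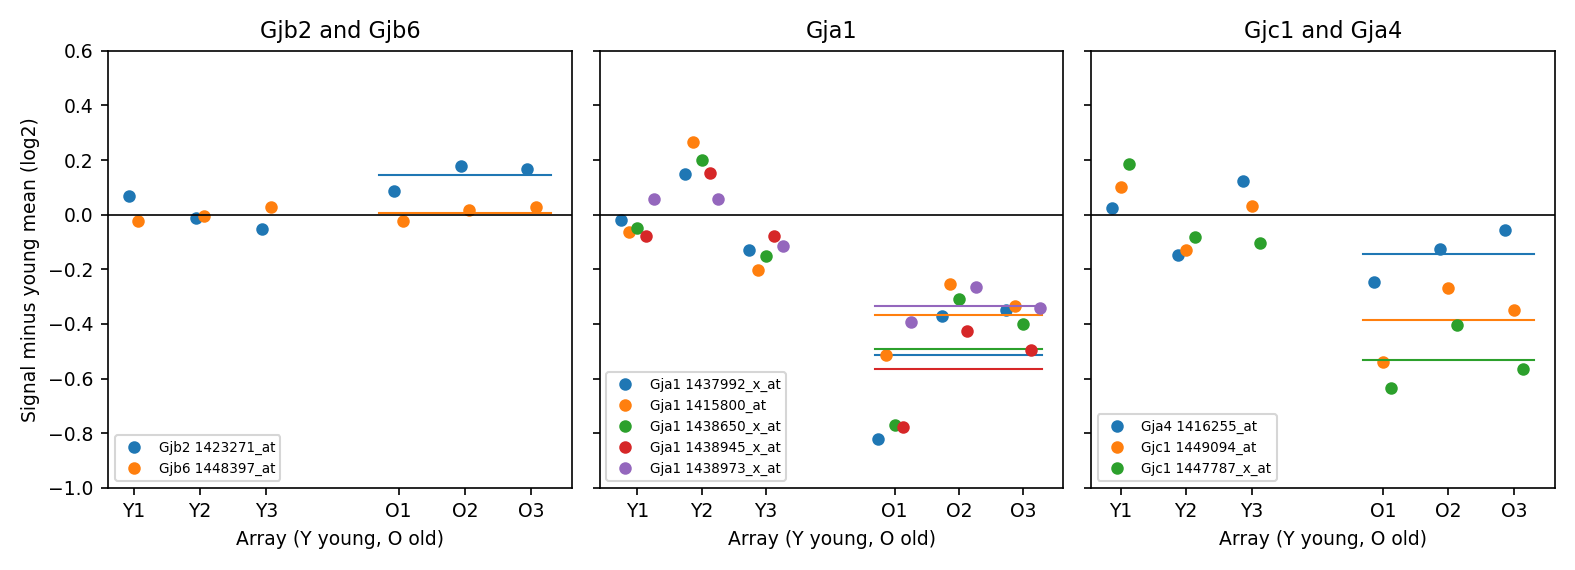
Signal minus the young mean (log2) on each array for the connexin probe sets above background, with horizontal lines at the old means. The 5 Gja1 probe sets lie below 0 on every old array, both Gjc1 probe sets do so too, and Gjb2 and Gjb6 stay within 0.2 of 0.

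The Gja1 promoter window is shown because 5 of the 6 Gja1 probe sets had non-overlapping, lower values in old tissue, and AP-1, the Fos and Jun factor, is known to act on this promoter. The window is chr10:56377050-56377349 on the plus strand of GRCm38.p6, from RefSeq, with the AP-1 motif TGAGTCA (searched on both strands) in capitals.
Gja1: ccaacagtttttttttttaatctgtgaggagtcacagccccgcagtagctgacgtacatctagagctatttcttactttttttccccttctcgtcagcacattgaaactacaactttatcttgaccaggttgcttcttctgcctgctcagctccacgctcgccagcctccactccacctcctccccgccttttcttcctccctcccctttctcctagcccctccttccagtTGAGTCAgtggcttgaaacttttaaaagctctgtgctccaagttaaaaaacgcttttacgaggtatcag
It held 1 AP-1 motif, whose first base lies 19 bases before the transcription start. It held 0 GC boxes, 8 CpG dinucleotides and 47.7% G or C. The AP-1 motif was found in 5.2% of the 32851 windows, and in none of the other 8 windows of the connexin genes. A match of letters is a description and not evidence of binding.

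Bone adjoins the lateral wall, and osteoblasts and osteocytes carry Cx43. Of 7 bone genes measured, all above background, 3 fell, 0 rose and 4 did not pass, beside 2.33% of all genes lower. The 4 were Ibsp (-2.25), Sost (-1.20), Sp7 (-0.04) and Alpl (0.32). Dmp1, an osteocyte matrix protein gene, fell from 12.25 ± 0.12 to 11.14 ± 0.17 (limma adjusted p = 0.00239). The summed linear signal of the list spanned 5852 to 7127 on the young and 2839 to 3628 on the old arrays, without overlap. Dmp1, the brightest gene of the list, weighs most in this sum. The median difference of the list was -1.20. The part of bone cells in the Gja1 difference was not tested.

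The vascular connexins were Gja4, Gja5 and Gjc1. Gja4 was at 7.39, 7.22 and 7.49 on the young arrays and at 7.12, 7.24 and 7.31 on the old arrays. The groups overlapped, with means of 7.37 ± 0.14 and 7.22 ± 0.10. The difference was -0.14 ± 0.10 (95% interval -0.36 to 0.08, limma adjusted p = 0.497). Gja5 was not above background, at 4.20, 4.10 and 4.31 in young and 4.35, 4.15 and 4.21 in old arrays. Its groups overlapped, and the difference was 0.03 ± 0.09 (limma adjusted p = 0.904). Of 10 general endothelial genes 9 were above background and none passed in the limma fit, with 0 at an adjusted p under 0.05 and a median difference of -0.01. Of 8 arterial endothelial genes 7 were above background, 1, Jag1, rose and 7 did not pass, with a list median difference of 0.21. Their summed signal spanned 3507 to 3692 on the young and 4162 to 4573 on the old arrays. Efnb2 and Sox17, the brightest of the list, differed by 0.28 and 0.23 without passing (limma adjusted p = 0.135 and 0.160). Gkn3 and Hey1 differed by 0.40 and 0.19, also without passing (limma adjusted p = 0.0502 and 0.375). Bmx and Sema3g differed by -0.09 and 0.00, and Dll4, which did not exceed background, by 0.04. The part of these cells in the Gja4 and Gja5 values was not tested.

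Gjc1 encodes Cx45, a connexin of smooth muscle and pericytes. Its brighter probe set, 1449094_at, was at 8.30, 8.07 and 8.23 on the young arrays and at 7.66, 7.93 and 7.85 on the old arrays. The groups did not overlap. The means were 8.20 ± 0.12 and 7.81 ± 0.14, and the difference of -0.39 ± 0.10 (95% interval -0.62 to -0.16) did not pass (limma adjusted p = 0.0698). It passed without young replicate 2, with a difference of -0.45 (limma adjusted p = 0.0430), and also with array weights (0.0338) and over probe sets above the median signal (0.0477). The dimmer probe set, 1447787_x_at, passed. It carries the suffix x_at, as does the Gja1 probe set that passed, so some of its probes can also bind other transcripts. In the main fit no connexin probe set without that suffix passed. The probe set 1447787_x_at was at 6.65, 6.38 and 6.36 in young and 5.83, 6.06 and 5.90 in old arrays, and its old values lay near the background level of 5.89. Its means were 6.46 ± 0.16 and 5.93 ± 0.12, with a difference of -0.53 ± 0.11 or a ratio of 0.691 (limma adjusted p = 0.0298). That call was lost without young replicate 1, young replicate 3, old replicate 1 or old replicate 3, with a limma adjusted p of up to 0.124. The mean of both probe sets gave a difference of -0.46 and passed (limma adjusted p = 0.0299 over genes).

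**Figure D3:**
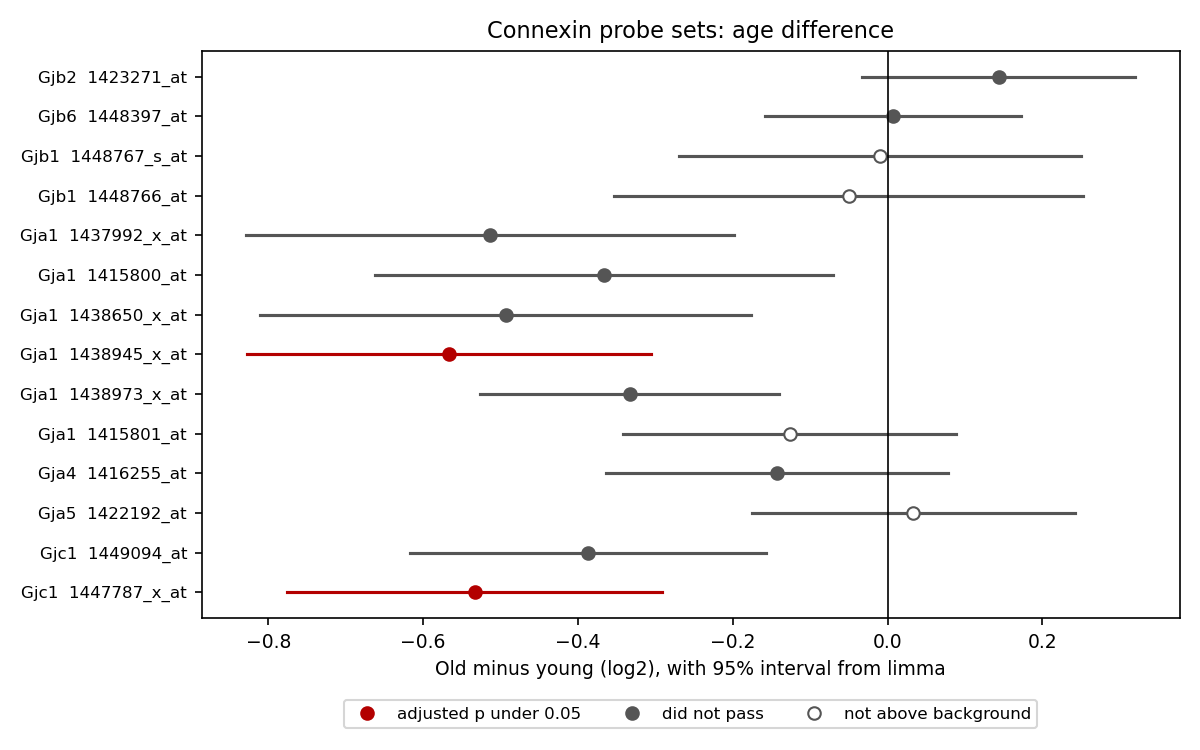
Difference of old minus young (log2) with its 95% limma interval for the 14 connexin probe sets. Filled symbols are above background, open symbols are not, and red marks the 2 probe sets that passed, 1 of Gja1 at -0.57 and 1 of Gjc1 at -0.53.

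Of 7 smooth muscle genes 5 were above background, Myh11 and Cnn1 were not, and Acta2 and Tagln, both contractile cytoskeleton genes, fell. The other 5 did not pass, with differences of -0.12 to 0.14, and the median difference of the list was -0.09. The summed signal of the list spanned 1565 to 1806 on the young and 1115 to 1221 on the old arrays, without overlap. Acta2, the brightest gene of the list (9.81 in young and 9.07 in old tissue), weighs most in this sum. Of 8 pericyte genes, all above background, none passed in the limma fit, with 0 at an adjusted p under 0.05. Their differences were below 0 for 6 of the 8, with a median of -0.16, and the summed signals of 8225 to 10816 and 7961 to 8553 overlapped. The part of these cells in the Gjc1 difference was not tested.

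Gjb1 encodes Cx32, the connexin of myelinating Schwann cells. The probe set 1448767_s_at was at 5.26, 4.89 and 4.96 in young and 5.14, 5.02 and 4.92 in old arrays. The probe set 1448766_at was at 4.74, 4.46 and 4.40 in young and 4.73, 4.31 and 4.41 in old arrays. Both lay below background on all 6 arrays with overlapping groups. They differed by -0.01 ± 0.11 (limma adjusted p = 0.980) and by -0.05 ± 0.13. Of 6 Schwann cell and myelin genes measured, 4 were above background, including Mbp at 9.72 ± 0.14 and 9.74 ± 0.10, while Mag and Egr2 were not. Pmp22 and Ncmap fell and 4 did not pass, beside 2.33% of all genes lower. The 4 were Mbp (0.02), Mal (0.08), Mag (-0.04) and Egr2 (-0.41), and the median difference of the list was -0.22. Gjb1 is X-linked, and on the array of young replicate 2 it was at 4.89, the lowest of the 6 values of 1448767_s_at, and at 4.46 on 1448766_at, within the range of the other arrays.

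Of the other connexin genes, 7 of 13 were measured, and 0 of 7 passed in the limma fit, with 0 at an unadjusted p under 0.05. Gjc3, the glial connexin Cx29, was the one above background, with means of 5.74 ± 0.08 for young and 5.98 ± 0.24 for old arrays (0.24 ± 0.12, limma adjusted p = 0.336). Gja3, Gja10, Gjb5, Gjd2, Gjd4 and Gje1 did not exceed background. The median difference was 0.03 over these 7 genes.

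Pannexins are channel proteins of a separate family that rarely form gap junctions. Of 3 pannexin genes, Panx3, the pannexin of bone, cartilage and skin, passed as higher in old tissue. Its brightest probe set, 1456073_s_at, was at 6.93, 7.67 and 7.57 on the young arrays and at 8.38, 8.18 and 8.02 on the old arrays. The groups did not overlap, with means of 7.39 ± 0.40 and 8.19 ± 0.18 and a difference of 0.80 ± 0.19 (limma adjusted p = 0.0489). The call was lost on leaving out any array except young replicate 2, with a limma adjusted p of up to 0.145, and after quantile normalization again (0.0503). The other Panx3 probe sets did not exceed background or pass (0.05 and -0.04), and the mean of all 3 gave 0.27 (limma adjusted p = 0.139 over genes). Panx1 and Panx2 did not exceed background, with differences of -0.03 and 0.04. Of the 7 bone genes, Dmp1, Mepe and Phex fell in the same samples. The other 4 did not pass, at -2.25 for Ibsp, -1.20 for Sost, -0.04 for Sp7 and 0.32 for Alpl. The part of bone cells in the Panx3 difference was not tested.

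Partner genes encode scaffolds, adhesion proteins, kinases and ubiquitin ligases that bind connexins or govern their assembly and removal. Of 26 measured, all above background, 0 rose, 2 fell and 24 did not pass, beside 2.45% of all genes higher and 2.33% lower, and the median difference was 0.04. Prkca, protein kinase C alpha, which phosphorylates Cx43, was at 11.91, 11.46 and 11.57 in young and 10.98, 11.04 and 11.11 in old arrays. It fell by 0.60 on the log2 scale with a standard error of 0.12 (limma adjusted p = 0.0293). Cdh2, N-cadherin, whose adherens junctions accompany Cx43 plaques, was at 8.74, 8.53 and 8.73 in young and 8.12, 8.28 and 8.21 in old arrays. Its difference was -0.46 ± 0.09 (limma adjusted p = 0.0284). The old and young values of both genes did not overlap. Other probe sets of these genes did not pass, at -0.33 and -0.24 for Prkca and -0.31 for Cdh2. The mean of all Prkca probe sets gave a difference of -0.39 and did not pass (limma adjusted p = 0.0652 over genes). For Cdh2, the mean of all probe sets also gave -0.39 and passed (limma adjusted p = 0.0211 over genes). The Prkca call was lost without young replicate 3 or any old array (limma adjusted p up to 0.0938) and that of Cdh2 on leaving out any array except young replicate 2 (up to 0.115).

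Among partners with a positive difference, Dsp, the desmosomal protein desmoplakin, had the smallest p. It was at 11.72, 11.85 and 11.96 in young and 12.15, 12.19 and 12.21 in old arrays, without overlap (0.34 ± 0.09, limma adjusted p = 0.0634). Tjp1, the scaffold ZO-1 that binds the tail of Cx43, was at 11.79 ± 0.06 and 11.93 ± 0.05 (0.14 ± 0.08, limma adjusted p = 0.386).

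**Figure D4:**
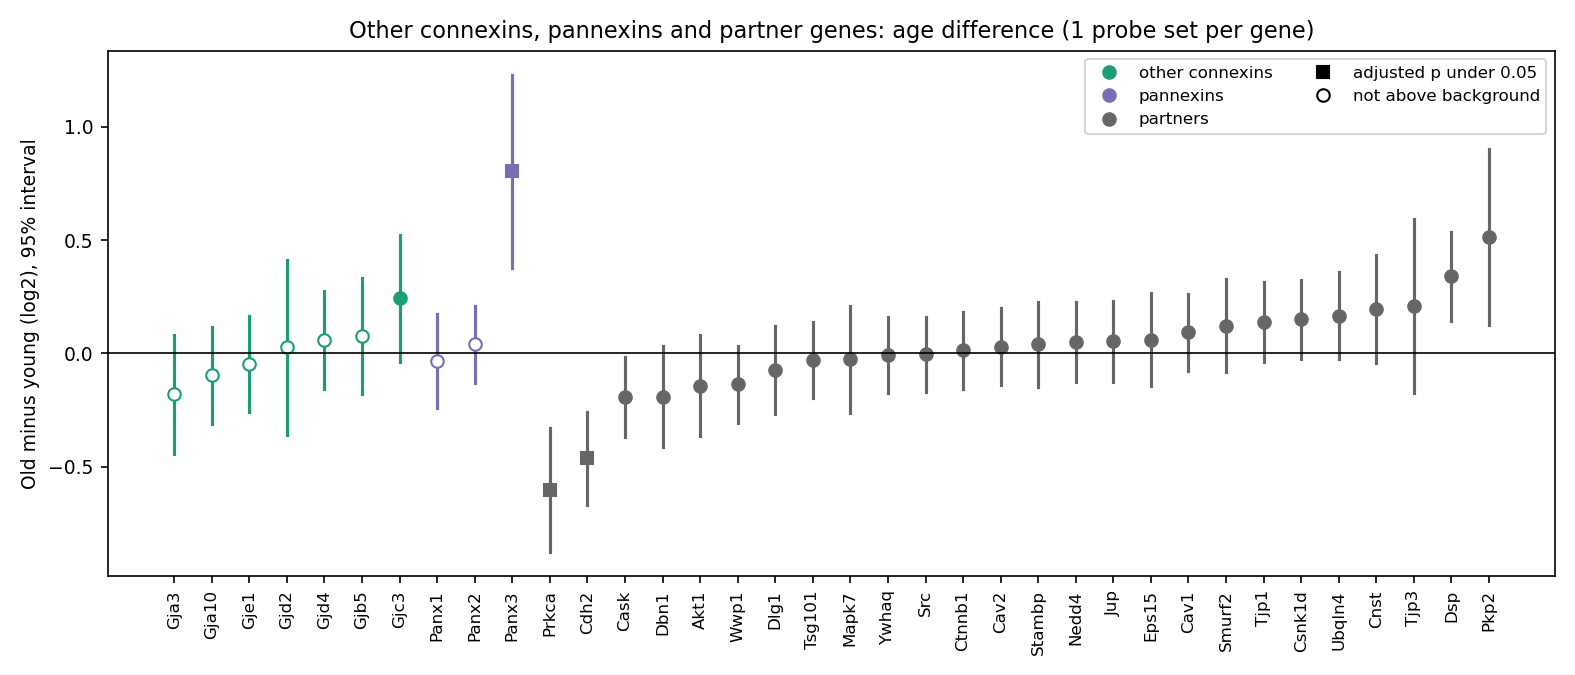
Difference of old minus young (log2) with its 95% limma interval for 7 other connexins, 3 pannexins and 26 partner genes, at 1 probe set per gene. Squares mark the 3 genes that passed, Panx3 at 0.80, Prkca at -0.60 and Cdh2 at -0.46, and open symbols are not above background.

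Genes with array patterns most like Gja1 and Gjc1 were listed by Pearson correlation over the 6 arrays among 12537 genes above background, as a description. For Gja1 they were Vav3 (r = 0.995), Septin10 (r = 0.992) and Ryr3 (r = 0.988), and 59 genes reached 0.95. For Gjc1 they were Mia3, Lncpint and Gpatch8 (r = 0.998, 0.998 and 0.996), and 147 genes reached 0.95. The points share the age difference and the same 6 arrays. The other 5 connexins spanned less than 0.5 log2 over the arrays or were not above background.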

How the data were processed

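Total RNA of the lateral wall was labelled with a 3′ IVT kit that primes from poly(A) tails, per the labels' protocols. Expression Console from Affymetrix, MAS5 and RMA appear in the submitters' processing notes, with roles and versions not given in the sources used here. The authors deposited log2 signals with 2 decimals for 45101 probe sets, and near-equal array medians show that arrays were scaled together, which removes any shift shared by most genes. Probe intensities were not used here, so scan batches and signal over probe background could not be checked. The number of arrays limits the precision.

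The 64 control probe sets were left out. Names came from GEO's platform annotation (34945 probe sets with 1 symbol, 932 with several, 9160 not listed). Of 173 listed genes, 152 were found, and 0 of them had another RefSeq symbol by Entrez identifier. limma 3.58.1 in R 4.3.3 (lmFit, eBayes, age as the only term) was run on the deposited log2 values, and the script was tested on simulated data. The brightest probe set stands for a gene, with its adjusted p. All member probe sets are reported. Of the other lists, called or above-background genes, up to 3 called partners per direction or else the one with the smallest p, and a few markers are named; Tjp1 was added after its values were seen. Likeness was listed for members above background that span at least 0.5 log2. The connexins, gene lists and tests were chosen with earlier results of these data known. Alternatives were further normalization, a filter on dim probe sets, other variance models, a replicate block, array weights, averaging over the probe sets of a gene, a threshold of 0.01 and leaving out each array. Figures were drawn with matplotlib 3.10.9.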

Additional observations from a re-analysis of the deposited data

How the results depend on the processing

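With 3 arrays per age, calls of this size depended on single arrays and on small shifts of the adjusted p. The count of connexin probe sets lower in old tissue was 2, and it became 4 after quantile normalization again and 4 over probe sets above the median signal. It was 1 with the replicate block and 0 at an adjusted p of 0.01. The filter on signal keeps a probe set when the mean of its brighter age group exceeds 6.28. The Gjc1 probe set 1447787_x_at was kept only through its young group (6.46 in young, 5.93 in old), so its call there is not further support. Leaving out 1 array gave 0 to 2. None was called higher in any of these settings. The count of other connexin, pannexin and partner genes was 3, and became 5 with array weights, 1 with the replicate block and 0 at an adjusted p of 0.01, with 0 to 3 on leaving out 1 array. Array weights gave 2266 probe sets and 1214 genes higher and 2214 probe sets and 700 genes lower. An adjusted p of 0.01 left 116 probe sets and 69 genes higher and 320 probe sets and 122 genes lower. Leaving out 1 array gave 133 to 1851 probe sets higher, 382 to 1542 lower, 79 to 1042 genes higher and 148 to 478 lower. The upper end of each range came without young replicate 2, the array with the low Xist signal. Each upper end exceeded the main fit, which called 838 probe sets and 446 genes higher and 1281 probe sets and 424 genes lower.

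The number of connexins with signal was 5 with either background level. Gjb6 minus Gjb2 ranged from -0.18 to -0.10 on leaving out 1 array, and the 3′ excess from 0.13 to 0.23 for Gapdh and from 0.05 to 0.28 for Actb. The differences of Gja1, Gjc1, Gja4 and Gjb2 kept their sign in every setting. Values near 0 changed sign without passing. After quantile normalization again, Gjb6 was at -0.0028 and the Gjb1 probe set 1448767_s_at at 0.0011, and with array weights Gja5 was at -0.026. Leaving out 1 array, Gjb6 ranged from -0.0050 to 0.022, Gja5 from -0.023 to 0.087, the Gjb1 probe set 1448766_at from -0.17 to 0.053 and 1448767_s_at from -0.083 to 0.10. The Gja1 probe set 1438973_x_at passed after quantile normalization again, cyclic loess or the filter on dim probe sets (limma adjusted p of 0.0400 to 0.0450), and 1438650_x_at after quantile normalization again (0.0492). The brightest probe sets of Gja1 and Gjc1 passed with an intensity trend (0.0482) and with array weights or the filter (0.0338 and 0.0477). The alternatives for Panx3, Prkca and Cdh2 and those for the 3′ excess were chosen after seeing the data. For the same replicate number, deviations from the group means correlated at 0.14, 0.08 and 0.01, and for different numbers at -0.11 to 0.07. These small values do not decide whether the numbers are pairs, and the main fit did not take them as pairs. With the block, the Gjc1 probe set 1447787_x_at had a limma adjusted p of 0.0526, Cdh2 of 0.0533 and Panx3 of 0.0727, so that these calls were lost. The cause of these shifts was not tested, other than that a stricter threshold leaves fewer calls. Over all probe sets and genes, leaving out an array gave fewer calls, except for young replicate 2, which gave more.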
